A study of Mus musculus with 24 samples.

Results

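Vcan, F13a1, Fn1, Mgst1, Hp and F10 are genes by which mouse classical monocytes are commonly recognised. They were taken by name from the deposited expression table, in which each symbol occurs once, and are 6 of the 53715 genes listed there. All 6 passed the filter on low values, which 11230 genes passed. In wt mice treated with imiquimod (IMQ), all 6 were lower in Ly6Clo than in Ly6Chi cells, as their common label has it. They then fell into unlike sets. Vcan, F13a1 and Fn1 were between 39.1- and 164-fold lower in wt Ly6Clo than in wt Ly6Chi cells and were 10.9- to 13.5-fold higher in Ly6Clo cells of N2ΔMy mice, whereas Mgst1, Hp and F10 were not called there. A different set of 3, Vcan, F10 and Hp, rose with IMQ treatment in Ly6Chi cells of both genotypes.

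The values come from RNA-sequencing of monocytes sorted from peripheral blood of mice on the C57BL/6 background, 8 to 10 weeks old. N2ΔMy mice carry floxed Notch2 and Cre recombinase driven by the Lyz2 locus, which is active in monocytes, macrophages and neutrophils, and wt mice were littermate controls without the deletion. IMQ mice received 50 mg of Aldara a day, a cream with 5% imiquimod, which activates Toll-like receptor 7. Control mice are labelled Sham, which stands for a Vaseline cream, although the methods on RNA isolation speak of untreated mice. Cells were sorted on day 5 as Ly6Chi or Ly6Clo cells positive for CD11b, CD115 and GFP, the last from a reporter allele at Cx3cr1 that mice of both genotypes then carried. Cells with lineage markers, which include the neutrophil antigen Ly6G, or with MHC-II were excluded, and in the Ly6Chi sort also those with CD43. There were 6 groups of 4 libraries: Ly6Chi cells of wt and N2ΔMy mice after Sham, Ly6Chi cells of wt and N2ΔMy mice after IMQ, and Ly6Clo cells of wt and N2ΔMy mice after IMQ. There are no libraries of Ly6Clo cells of Sham mice, since the authors found too few of these cells at the steady state. Genotype differences in Ly6Clo cells without IMQ can therefore not be seen here. Whether a library held cells of a single mouse or of pooled mice is not given in the sources used here, so p-values measure the spread between these libraries.

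Classical monocytes leave the bone marrow, express Ly6C and CCR2 and enter inflamed tissue, where they can become macrophages. Some of them stay in blood, lose Ly6C and turn into patrolling, Ly6Clo monocytes, a step in which Notch2 takes part. The 6 genes encode secreted proteins, apart from Mgst1. Versican, the product of Vcan, is a large proteoglycan that carries chondroitin sulphate and binds hyaluronan, and fibronectin, from Fn1, is an adhesive matrix protein read by integrins. F13a1 encodes the catalytic subunit of factor XIII, a transglutaminase that cross-links fibrin and fibronectin, and F10 encodes factor X, the vitamin K-dependent protease precursor that makes thrombin once activated. Mgst1 is a glutathione transferase of the endoplasmic reticulum and outer mitochondrial membrane. Haptoglobin, from Hp, binds free haemoglobin and belongs to the acute phase proteins.

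The sort and the genotype were checked on the values, which are counts that the authors normalised between libraries and rounded. Ly6c2, which encodes the sorted antigen, lay between 2370 and 9161 in Ly6Chi libraries and between 12 and 382 in Ly6Clo libraries. Within the Ly6Chi libraries it lay between 2370 and 3500 in replicates 1 and 2 and between 6065 and 9161 in replicates 3 and 4. Notch2 lay between 12656 and 20005 in wt and between 7240 and 11518 in N2ΔMy libraries, without overlap, so Notch2 RNA was reduced and still present. Lyz2, the driver of the Cre and itself a classical monocyte gene, lay between 28980 and 54580 in Ly6Clo libraries of either genotype and between 76632 and 234527 in Ly6Chi libraries. Depth had to be inferred from the rounded values. By their replicate numbers the libraries were taken as 2 series: replicates 1 and 2 of each group make up the first (14578084 to 19759572 reads), and replicates 3 and 4 the second (9521379 to 15594484 reads). The sample titles do not name such series, and the depth ranges overlap. Values within each series are therefore given beside the tests below.

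On GRCm38.p6, in the positions of the deposited table, Vcan lies on the minus strand at chr13:89655312-89742509 and F13a1 on the minus strand at chr13:36867178-37050244. Fn1 lies at chr1:71585520-71653200, also on the minus strand. Mgst1 lies on the plus strand at chr6:138140316-138156755, Hp on the minus strand at chr8:109575128-109579172 and F10 on the plus strand at chr8:13037308-13056676. Counts cover all exons of a gene, whose merged length runs from 1606 bases for Hp to 14462 for Vcan. Exons of F13a1 share 74 bases with RP24-512M2.1 and those of Fn1 share 424 bases with Apol7d, both on the opposite strand and never above 11 and 46 normalised counts. Since the strand setting of the counting is not given in the sources used here, reads from these overlaps cannot be assigned with certainty.

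RefSeq promoter windows on GRCm38.p6 were matched for 4 of the 6 genes, and not for Fn1 and Hp. The window of Mgst1 lies inside the gene as the deposited table places it and is not shown. The 250 bases before the start of Vcan, F13a1 and F10 are given here, the remaining 3 windows, since these genes differ in response: Vcan and F10 rose with IMQ while F13a1 did not pass the test, and Vcan and F13a1 differed between genotypes in Ly6Clo cells while F10 did not pass it. The windows are chr13:89742513-89742762 and chr13:37050245-37050494 on the minus strand for Vcan and F13a1, and chr8:13037058-13037307 on the plus strand for F10. For F13a1, with 2 RefSeq starts, the start nearest to that of the deposited table was used. The windows are written 5′ to 3′ along the gene, with every match to a searched motif in capitals.
Vcan: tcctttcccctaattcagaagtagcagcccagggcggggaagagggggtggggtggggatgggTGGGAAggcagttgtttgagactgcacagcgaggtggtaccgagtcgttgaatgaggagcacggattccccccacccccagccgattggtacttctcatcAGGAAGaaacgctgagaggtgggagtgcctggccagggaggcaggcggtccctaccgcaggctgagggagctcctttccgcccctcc
F13a1: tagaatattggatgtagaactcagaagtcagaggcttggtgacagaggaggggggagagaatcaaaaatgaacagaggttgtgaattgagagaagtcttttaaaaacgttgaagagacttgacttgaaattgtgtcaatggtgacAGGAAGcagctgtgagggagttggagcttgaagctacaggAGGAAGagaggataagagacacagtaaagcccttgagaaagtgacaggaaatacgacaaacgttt
F10: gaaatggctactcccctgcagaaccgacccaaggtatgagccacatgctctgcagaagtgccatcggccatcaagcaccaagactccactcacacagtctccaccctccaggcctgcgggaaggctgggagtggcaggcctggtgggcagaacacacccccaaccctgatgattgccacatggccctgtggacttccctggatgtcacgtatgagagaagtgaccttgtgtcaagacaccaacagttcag

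The search covered both strands and 6 motifs: the ETS motif AGGAAG, bound by PU.1 and related factors, the RBPJ motif TGGGAA, bound by the DNA-binding partner of Notch, the C/EBP motif TTGCNNAA, the AP-1 motif TGANTCA, the TATA box TATAAA and the NF-kB consensus. The Vcan window held the ETS motif 87 to 82 bases and the RBPJ motif 187 to 182 bases before the start. The F13a1 window held the ETS motif at 2 places, 105 to 100 and 65 to 60 bases before the start, and the F10 window held none of the 6 motifs. Such matches are common: of the 32851 promoter windows of the same length, 29.5% held the ETS motif and 21.6% the RBPJ motif, while 12.4% held the TATA box, 9.56% the C/EBP motif, 7.25% the NF-kB consensus and 6.75% the AP-1 motif. GC content was 62.4% for Vcan, 57.6% for F10 and 42.8% for F13a1, against a median of 52.4% over all windows. The matches describe these letters and were not tested for binding.

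The first comparison asked how the 6 genes differ between the blood subsets, Ly6Clo against Ly6Chi cells after IMQ. In wt mice all 6 were called lower, against 12.7% of all genes tested that were called lower and 24.6% called in either direction. A gene counted as called when its adjusted p (limma on log2(value + 1), Benjamini-Hochberg) did not exceed 0.05 and its log2 fold change was 0.6 or more in either direction. The matrix and fibrin cross-linking genes fell furthest, F13a1 and Vcan most of all 11230 genes tested, while Mgst1, Hp and F10 kept between 33.6% and 44.8% of the Ly6Chi level. The median log2 fold change of the 6 genes was -3.42, beside -0.01 over all genes tested.

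Vcan was at 16964, 14842, 12389 and 18487 in the wt Ly6Chi libraries and at 115, 69, 153 and 77 in the wt Ly6Clo libraries. The subsets were far from overlapping, with a log2 fold change of -7.28 (SE 0.23, adjusted p = 1.6e-08), a 156-fold lower level with a 95% interval of 110 to 222. F13a1 was at 19633, 19222, 22934 and 24635 in wt Ly6Chi libraries and at 71, 74, 450 and 120 in wt Ly6Clo libraries. Replicate 3 of the Ly6Clo group stood above the others, and the log2 fold change was -7.36 (SE 0.47, adjusted p = 1.5e-06) with it and -7.95 without it. Fn1, at 136286, 109248, 137785 and 132747 in wt Ly6Chi libraries, was at 3957, 2158, 4325 and 3163 in wt Ly6Clo libraries. Its log2 fold change was -5.29 (SE 0.20, adjusted p = 5.0e-08), the gene ranking at place 22 among the lowest.

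Among the milder genes, F10 was at 5831, 5708, 4787 and 7029 in wt Ly6Chi libraries and at 2076, 1853, 2039 and 1877 in wt Ly6Clo libraries. It was 2.95-fold lower (95% interval 2.48 to 3.52, adjusted p = 3.0e-06), and the 4 Ly6Clo libraries lay close together. Hp fell from 8488, 7024, 7860 and 10831 to 4789, 2924, 3119 and 3464, and Mgst1 from 1543, 1394, 1502 and 1617 to 662, 621, 659 and 773. None of the 6 genes overlapped between the subsets, a separation in this direction that 17.1% of all genes tested showed, with Hp 2.41-fold lower (adjusted p = 2.0e-04) and Mgst1 2.23-fold lower (adjusted p = 8.1e-06). Within the library series all 6 kept the direction, with log2 fold changes of -7.46 and -7.11 for Vcan, -8.05 and -6.67 for F13a1 and -1.19 and -1.13 for Mgst1. In each of the 6 genes the two-sided exact permutation test gave p = 0.0286, the smallest that 4 against 4 libraries allow. That test takes the libraries as exchangeable and leaves out the series. Whether the 2 subsets came from the same mice is not given in the sources used here.

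**Figure D1:**
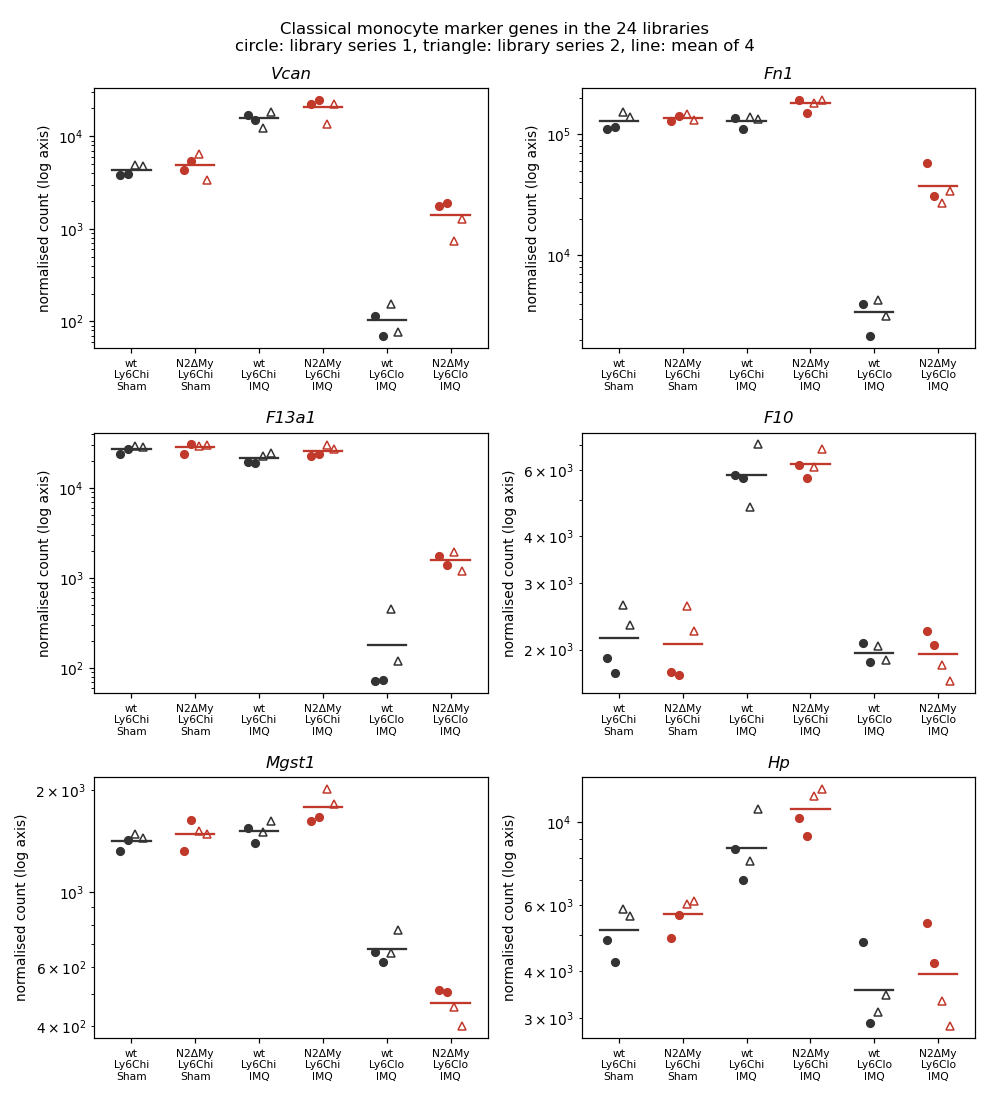
Normalised counts of the 6 genes in each of the 24 libraries (vertical log axis), in the 6 groups on the horizontal axis, with the mean of 4 libraries as a line and wt in black, N2ΔMy in red. Vcan, Fn1 and F13a1 are lowest in wt Ly6Clo cells and higher in every N2ΔMy Ly6Clo library, while F10 and Hp overlap between the genotypes there and, with Vcan, are higher after IMQ in Ly6Chi cells.

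In N2ΔMy mice, all 6 genes were again called lower in Ly6Clo than in Ly6Chi cells after IMQ, beside 8.38% of all genes tested called lower and 17.4% in either direction. The matrix and cross-linking genes fell by less than in wt mice. Vcan was at 22178, 24987, 13705 and 22333 in N2ΔMy Ly6Chi and at 1785, 1886, 743 and 1282 in N2ΔMy Ly6Clo libraries, which is 15.2-fold lower (adjusted p = 3.4e-06). F13a1 was at 22689, 23864, 30456 and 27049 against 1754, 1384, 1962 and 1190, 16.7-fold lower (adjusted p = 2.9e-07). Fn1 was at 192447, 149913, 181280 and 190976 against 57919, 30795, 26927 and 33841, and 4.98-fold lower (adjusted p = 2.7e-05). The order of the losses was thus kept, with F13a1 and Vcan beyond Fn1. Mgst1 was 3.79-fold lower (adjusted p = 1.1e-06), F10 3.22-fold lower (adjusted p = 2.1e-06) and Hp 2.81-fold lower (adjusted p = 1.5e-04).

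As a share of the mean of the Ly6Chi libraries of the same genotype, Vcan in Ly6Clo cells was 0.660% ± 0.246 in wt and 6.85% ± 2.53 in N2ΔMy mice (SD, n = 4 in each). F13a1 stood at 0.827% ± 0.843 in wt and 6.04% ± 1.34 in N2ΔMy mice, and Fn1 at 2.64% ± 0.744 and 20.9% ± 7.83. For these 3 genes every N2ΔMy library lay above every wt library. Mgst1 went the other way, with 44.8% ± 4.33 in wt and 26.4% ± 2.92 in N2ΔMy mice, and its libraries did not overlap either. The shares of Hp, 41.8% ± 9.83 and 36.4% ± 10.2, and of F10, 33.6% ± 1.93 and 31.2% ± 4.20, overlapped between the genotypes.

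**Figure D2:**
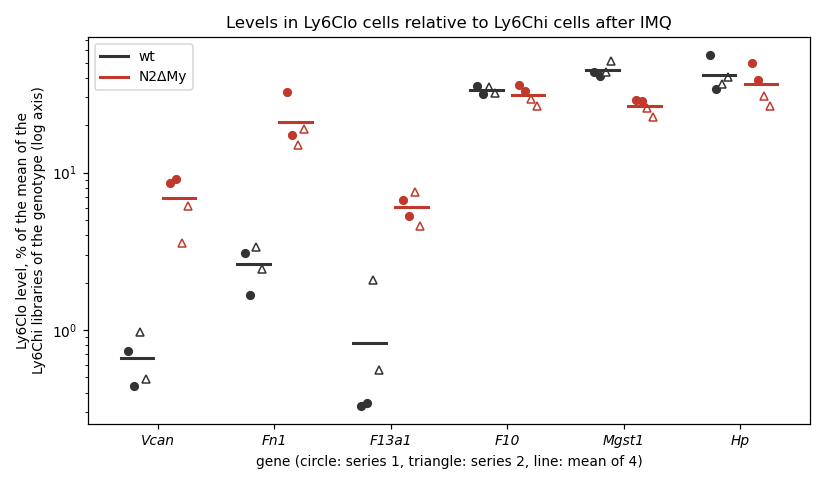
Level of each gene in the 4 Ly6Clo libraries of a genotype as a percentage of the mean of its Ly6Chi libraries after IMQ (vertical log axis), with the mean as a line, wt in black and N2ΔMy in red. The means of Vcan, Fn1 and F13a1 are 0.660%, 2.64% and 0.827% in wt and 6.85%, 20.9% and 6.04% in N2ΔMy cells, while Hp and F10 overlap and Mgst1 is lower in N2ΔMy cells.

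Whether loss of Notch2 in myeloid cells changes the 6 genes was compared within each subset. In Ly6Clo cells after IMQ, 3 of the 6 genes were called higher in N2ΔMy than in wt mice and none lower, beside 3.12% of all genes tested called higher and 4.78% called in either direction. That background is 537 genes, or 939 with the replicate number as a block, under which the same number of the 6 genes was called. Vcan, from 115, 69, 153 and 77 in wt to 1785, 1886, 743 and 1282 in N2ΔMy libraries, was 13.5-fold higher (log2 fold change 3.75, SE 0.32, adjusted p = 1.6e-04). F13a1, from 71, 74, 450 and 120 to 1754, 1384, 1962 and 1190, was 11.8-fold higher (log2 fold change 3.56, SE 0.49, adjusted p = 0.00199). Fn1, from 3957, 2158, 4325 and 3163 to 57919, 30795, 26927 and 33841, was 10.9-fold higher (log2 fold change 3.44, SE 0.26, adjusted p = 7.1e-05). No wt library reached the lowest N2ΔMy library in any of these genes, and 4 of the 6 genes, with Mgst1, did not overlap between genotypes, beside 12.8% of all genes, and among the genes tested, ordered from the highest log2 fold change down, Vcan, F13a1 and Fn1 stood at places 16, 20 and 24.

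The wt Ly6Clo library with the high F13a1 value, replicate 3, narrowed that difference, which was 4.15 on the log2 scale without it and still called. Within the first library series the log2 fold changes were 4.35 for Vcan, 4.41 for F13a1 and 3.85 for Fn1, and within the second 3.16, 2.71 and 3.03. In the second series alone, with 2 libraries a group, F13a1 was no longer called (adjusted p = 0.051), nor was it with all libraries and no filter on low values (adjusted p = 0.0655).

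The other 3 genes did not follow. Mgst1 was at 662, 621, 659 and 773 in wt and at 514, 505, 458 and 401 in N2ΔMy Ly6Clo libraries. All N2ΔMy libraries were below all wt libraries and the adjusted p was 0.0262, but the log2 fold change of -0.53 (SE 0.12) was smaller than the size required for a call. Hp was at 4789, 2924, 3119 and 3464 against 5383, 4213, 3330 and 2861, with a log2 fold change of 0.13 and a 95% interval of -0.32 to 0.58. F10 was at 2076, 1853, 2039 and 1877 against 2241, 2058, 1819 and 1647, with a log2 fold change of -0.02 and an interval of -0.26 to 0.22. For both, the genotypes overlapped, and the intervals leave out changes of the size seen in Vcan, F13a1 and Fn1.

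The difference between the subsets in the effect of genotype was tested as an interaction over the 16 IMQ libraries. It was called for 4 of the 6 genes, beside 116 of the 11230 genes tested (1.03%), or 271 with the replicate block. The rise in Ly6Clo cells exceeded the difference in Ly6Chi cells by 3.36 on the log2 scale for Vcan (SE 0.40, adjusted p = 2.6e-04), 3.29 for F13a1 (SE 0.56, adjusted p = 0.00546) and 2.97 for Fn1 (SE 0.32, adjusted p = 8.6e-05). For Mgst1 the interaction was -0.76 (SE 0.15, adjusted p = 0.0138) with a difference of -0.53 in Ly6Clo and of 0.23 in Ly6Chi cells, neither of them called. Hp (-0.22, SE 0.27) and F10 (-0.12, SE 0.16) were not called, both with an adjusted p of 0.999. Within the second library series the interaction was called for Fn1 alone, and that of Mgst1 was not called within the first series either.

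The effect of treatment was compared in Ly6Chi cells, IMQ against Sham. In wt mice, Vcan, F10 and Hp were called higher and none of the 6 lower, beside 4.43% of all genes called higher and 9.49% called in either direction. Vcan was at 3818, 3957, 4916 and 4773 after Sham and at 16964, 14842, 12389 and 18487 after IMQ, 3.57-fold higher (log2 fold change 1.84, SE 0.13, adjusted p = 4.5e-05). F10 was at 1897, 1732, 2624 and 2328 after Sham and at 5831, 5708, 4787 and 7029 after IMQ, 2.73-fold higher (adjusted p = 1.9e-04). Hp went from 4853, 4232, 5881 and 5637 to 8488, 7024, 7860 and 10831, 1.65-fold higher (adjusted p = 0.00667, and 0.0708 without the filter on low values, where it was not called). None of these 3 genes overlapped between the treatments, which 9.93% of all genes did with higher values after IMQ.

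Fn1 and Mgst1 were not called in the same wt cells. Fn1 was at 109294, 113265, 152715 and 137494 after Sham and at 136286, 109248, 137785 and 132747 after IMQ, a log2 fold change of 0.02 with an interval of -0.35 to 0.38. Mgst1 was at 1321, 1425, 1478 and 1446 after Sham, with a log2 fold change of 0.09 (interval -0.08 to 0.27). F13a1 had 24275, 27104, 29154 and 28664 after Sham and 19633, 19222, 22934 and 24635 after IMQ. Its log2 fold change of -0.34 did not pass the test (adjusted p = 0.0639), and the treatments overlapped.

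In N2ΔMy mice the same 3 genes were called higher after IMQ, beside 4.15% of all genes called higher and 8.7% in either direction. Vcan was at 4363, 5400, 6493 and 3390 after Sham and 4.25-fold higher after IMQ (log2 fold change 2.09, SE 0.23, adjusted p = 3.2e-04). F10 was at 1738, 1709, 2606 and 2241 after Sham and at 6184, 5734, 6103 and 6847 after IMQ, 3.04-fold higher (adjusted p = 1.0e-04). Hp was at 4906, 5661, 6045 and 6176 after Sham and at 10270, 9158, 11738 and 12221 after IMQ, 1.90-fold higher (adjusted p = 6.3e-04). Fn1, too, was higher in every library after IMQ, a separation in this direction that 9.87% of all genes showed, but its log2 fold change of 0.39 was not called (adjusted p = 0.144). F13a1 had a log2 fold change of -0.14 and Mgst1, at 1614, 1669, 2009 and 1822 after IMQ, of 0.26, and neither was called. The interaction of genotype and treatment was called in none of the 6 genes and, with limma, in none of the 11230 genes tested (0.0%), of which 177 had an unadjusted p under 0.05. The interaction for Fn1 was 0.37 on the log2 scale with an interval of -0.06 to 0.80, so a moderate difference cannot be told from none.

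In Ly6Chi cells none of the 6 genes was called between the genotypes. After Sham, 2 of all genes tested were called (0.0178%; 585 at an unadjusted p under 0.05), and the log2 fold changes of the 6 genes ran from -0.05 for F10 to 0.15 for Hp. F13a1 was at 23977, 30638, 29727 and 29861, Fn1 at 127206, 140657, 147262 and 130068 and Mgst1 at 1323, 1625, 1509 and 1485 in N2ΔMy Ly6Chi libraries after Sham. For each of these genes the genotypes overlapped. After IMQ, 3 of all genes were called (0.0267%; 679 at an unadjusted p under 0.05), or 54 with the replicate block, and all 6 values lay above 0, from 0.10 for F10 to 0.47 for Fn1. Fn1 was higher in every N2ΔMy than in every wt library, as 2.13% of all genes were, at 1.38-fold (interval of the log2 fold change 0.10 to 0.84, adjusted p = 0.67). The wt Ly6Chi libraries after IMQ also enter the comparison with Ly6Clo cells and with Sham, so these comparisons are not independent of each other.

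**Figure D3:**
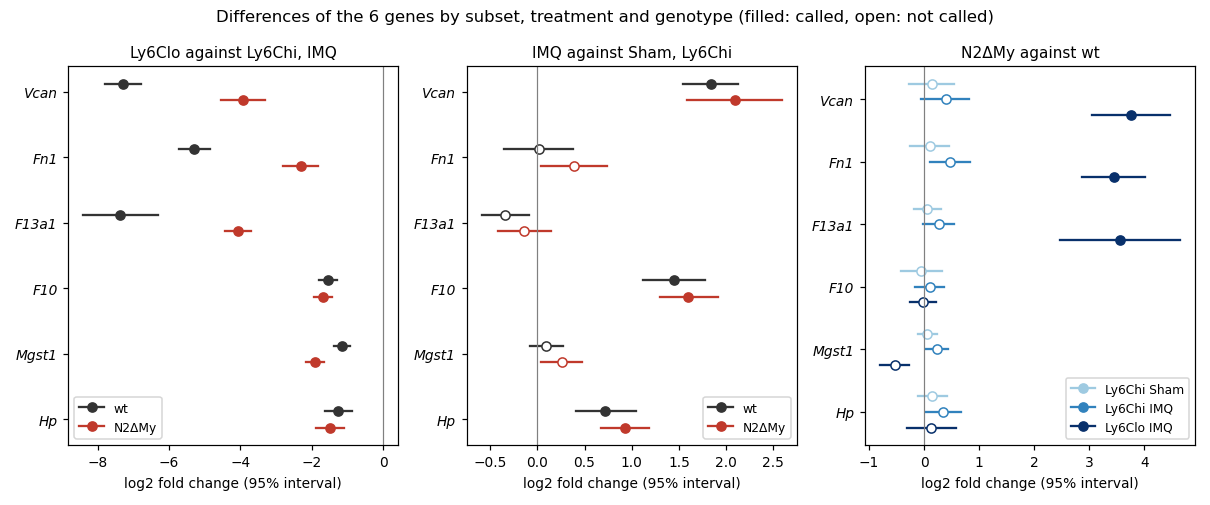
Log2 fold changes of the 6 genes (points, horizontal axis) with 95% intervals (bars) for Ly6Clo against Ly6Chi cells, IMQ against Sham and N2ΔMy against wt mice, with filled points for called differences. Vcan, Fn1 and F13a1 stand at 3.75, 3.44 and 3.56 between genotypes in Ly6Clo cells, and no gene is called between genotypes in Ly6Chi cells.

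In order of their mean levels, Vcan stood highest in N2ΔMy and wt Ly6Chi cells after IMQ (20801 and 15670, ranges overlapping), then in N2ΔMy and wt Ly6Chi cells after Sham (4912 and 4366, overlapping), then in N2ΔMy Ly6Clo cells (1424) and last in wt Ly6Clo cells (104), and the other neighbours did not overlap. F13a1 overlapped between each pair of neighbours among the 4 Ly6Chi groups (21606 to 28551), which lay clear of 1572 in N2ΔMy and 179 in wt Ly6Clo cells. Fn1 was highest in N2ΔMy Ly6Chi cells after IMQ (178654), clear of the next group, although a wt Sham library at 152715 exceeded the lowest value there, and the other 3 Ly6Chi groups (128192 to 136298) overlapped. F10 had only 2 levels: 5839 and 6217 in Ly6Chi cells after IMQ, and 1941 to 2145 in Sham Ly6Chi and IMQ Ly6Clo cells, among which neighbours overlapped. Hp was ordered in the same way, but with Sham Ly6Chi cells (5151 and 5697) above IMQ Ly6Clo cells (3574 and 3947) in the mean and overlapping with them. Mgst1 ran from 1418 to 1778 in Ly6Chi groups, with neighbours overlapping, and then to 679 in wt and 470 in N2ΔMy Ly6Clo cells.

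Per kilobase of exon, which allows levels to be compared between genes, Fn1 was by far the highest of the 6 in wt Ly6Chi cells after IMQ, at 11041 normalised counts per kb and place 26 of the 53715 genes. Hp followed at 5324, F13a1 at 3206, F10 at 2138, Vcan at 1084 and Mgst1 at 752. In wt Ly6Clo cells Hp led with 2225 per kb, ahead of F10 at 718, Mgst1 at 337 and Fn1 at 291, while F13a1 stood at 26.5 and Vcan at 7.16. In N2ΔMy Ly6Clo cells Fn1 was again the highest, at 3198 per kb, ahead of Hp at 2458. In bulk samples, fewer cells that express a gene and less RNA per cell cannot be told apart.

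The profiles of the genes over the 6 groups were compared as the root mean square distance between group means of log2(value + 1), each centred on the gene's own mean, among 8375 tested genes with a mean of at least 100. Hp and F10 lay closest together (0.309), then Mgst1 and Hp (0.401), while F13a1 and F10 were furthest apart (2.66). Vcan and Fn1 lay 0.845 apart. The nearest gene to Fn1 was Ccr2, the chemokine receptor by which classical monocytes leave the marrow, at 0.322, with mean values of 13274 in wt Ly6Chi, 589 in wt Ly6Clo and 5708 in N2ΔMy Ly6Clo cells after IMQ. Vcan was nearest to Ccr1, another chemokine receptor (0.407), and F13a1 to Clec5a, a myeloid lectin receptor (0.384). Tmem154 was among the 3 nearest genes of both Vcan (0.812) and F13a1 (0.524). The nearest genes were Tesk2 (0.0717) and Tspo (0.0918) for Hp, Tgm1 (0.210) and Ptgr1 (0.234) for F10, and Svip (0.109) for Mgst1. The distances describe likeness over 6 groups and carry no test.

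Of 9 other classical monocyte genes listed and tested, 8 were called lower and none higher in wt Ly6Clo cells (median log2 fold change -2.57), among them Ly6c2 (-7.02), the collagenase gene Mmp8 (-6.72) and Ccr2 (-4.67). Between genotypes in Ly6Clo cells, 3 of the 9 were called higher: Ccr2 (3.44, adjusted p = 3.2e-04), Mmp8 (1.42, adjusted p = 0.0353) and Chil3 (0.98, adjusted p = 0.0411). With the replicate block 5 were called, Ly6c2 among them. Ccr2 was the only one of the 9 called in the interaction of genotype and subset (2.94, adjusted p = 6.4e-04), against 2 of the 9 with the block. After IMQ, Chil3 (2.45 in wt) and Mmp8 (1.17) were called higher in Ly6Chi cells of both genotypes, and Ms4a4c (-0.84), chosen here after its values were seen, lower. The median log2 fold change of the 9 genes with IMQ was -0.36 in wt and -0.19 in N2ΔMy mice, beside 0.41 and 0.66 for the 6 genes.

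Around the coagulation factors, 35 genes of coagulation and fibrinolysis were listed and 10 passed the filter. Of the 10, 5 were called lower and 2 higher in wt Ly6Clo than in wt Ly6Chi cells. F5, whose product is the cofactor of activated factor X, was lower (-4.74, adjusted p = 1.1e-07), as was S100a10 (-2.69), part of a plasminogen receptor. Tgm2, a tissue transglutaminase of the same enzyme family as F13a1, was higher (4.50, adjusted p = 1.2e-06), and so was Thbd, which encodes thrombomodulin (0.88). Between genotypes in Ly6Clo cells, F5 (1.96, adjusted p = 0.00194) and S100a10 (1.86, adjusted p = 3.0e-04) were higher in N2ΔMy mice and Tgm2 lower (-0.80, adjusted p = 0.0304). Mean values of F5 in Ly6Clo cells were 96.8 in wt and 378 in N2ΔMy mice, against 2531 and 3614 in Ly6Chi cells. So in N2ΔMy Ly6Clo cells F13a1 and F5 were higher and Tgm2 lower, while F10 did not pass the test.

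After IMQ, 3 of the 10 coagulation genes were called higher and 2 lower in wt Ly6Chi cells, and 4 higher and none lower in N2ΔMy Ly6Chi cells. F7, which encodes the protease precursor that activates factor X and was chosen here after its values were seen, had means of 11.2 after Sham and 108 after IMQ (log2 fold change 3.41, adjusted p = 7.1e-04), and 12.5 and 118 in N2ΔMy mice (3.20). Tfpi, the inhibitor of that activation, also chosen after its values were seen, had means of 52.0 and 19.2 in wt mice (-1.38, adjusted p = 0.00621), and means of 50.8 and 23.8 in N2ΔMy mice, where it was not called (-1.08, adjusted p = 0.0593). Of 7 genes of the vitamin K cycle and propeptide processing 3 were tested, of which Aifm2, a quinone reductase gene, was called higher after IMQ (1.19 in wt, 1.26 in N2ΔMy mice) and between genotypes in Ly6Clo cells (0.81, adjusted p = 0.0263).

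For versican and fibronectin, 10 receptor genes were listed and 9 tested. In wt Ly6Clo cells 3 were called higher, among them the integrin genes Itgb3 (2.74) and Itgav (1.04), and 2 were called lower, Tlr2 (-2.19), a receptor that binds versican, and Itga5 (-1.02), a subunit of the main fibronectin receptor. Between genotypes in Ly6Clo cells, Tlr2 (1.60, adjusted p = 0.00348) and Itga5 (0.66, adjusted p = 0.00347) were called higher in N2ΔMy mice and Itgb3 lower (-1.36, adjusted p = 1.6e-04). In each of these 3 receptors, as in Vcan and Fn1, the N2ΔMy Ly6Clo mean lay between the wt Ly6Clo and the wt Ly6Chi mean. Among 12 tested genes of chondroitin sulphate synthesis, Chst15 (3.09) and Ust (0.75) were called higher in wt Ly6Clo cells and none was called between genotypes. None of 13 genes for other hyalectans, link proteins, hyaluronan synthases and versican-cleaving proteases passed the filter, so Vcan had no partner of that kind to compare.

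Of 24 genes of the membrane glutathione transferase family and of glutathione enzymes, 15 were tested. In wt Ly6Clo cells Gpx3 (-1.35) and Mgst3 (-1.48) were called lower, like Mgst1, and Gstm4 (1.23) and Gstp1 (1.14) higher. Between genotypes in Ly6Clo cells, Gss (-0.78), Gstm4 (-1.09) and Gsr (-0.88) were called lower in N2ΔMy mice, with adjusted p between 0.0122 and 0.0186. Ltc4s, a leukotriene C synthase of the family of Mgst1, was called higher (3.86, adjusted p = 0.00121), from a mean of 14.5 to 228. Of 15 genes of haptoglobin handling and the acute phase, 11 were tested, and after IMQ 3 were called higher in wt Ly6Chi cells, or 4 with 1 lower under the replicate block. They were Socs3 (1.53) and, far beyond Hp itself, Lcn2 (7.48) and Saa3 (7.16), chosen after their values were seen. Between genotypes in Ly6Clo cells Socs3 alone was called, lower in N2ΔMy mice (-0.80, adjusted p = 4.4e-04), whereas with the replicate block 1 gene was called higher and 1 lower.

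Markers of other cells moved with some of these results. Macrophage markers, 9 genes summed per library, lay between 103 and 198 in wt and between 1611 and 2336 in N2ΔMy Ly6Clo libraries, the same direction as Vcan, F13a1 and Fn1. Of the 9, 6 were tested and 5 were called higher, the complement genes C1qa (4.78), C1qb (3.88) and C1qc (4.18) as well as Mertk (4.41) and Mrc1 (3.32), while Vsig4 and Timd4 were at 0 in all 4 N2ΔMy libraries. In Ly6Chi libraries of both genotypes the macrophage sum lay between 509 and 1165 after Sham and between 126 and 218 after IMQ. The part of macrophage markers in the difference between genotypes was not tested. Patrolling monocyte markers, 9 genes that include Nr4a1 and Spn, summed to between 122765 and 148071 in wt and between 68162 and 85868 in N2ΔMy Ly6Clo libraries, with 5 called lower, or 7 with the replicate block. Between genotypes in Ly6Chi cells after IMQ none of the 9 was called, or 3 lower with the block.

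Neutrophil markers, 10 genes, summed to between 2 and 59 in Ly6Chi libraries after Sham and to between 923 and 5229 after IMQ, the same direction as Vcan, F10 and Hp. S100a8 and S100a9, which monocytes also express, were the 2 called higher in wt mice, with Mmp9 in addition in N2ΔMy mice. Ly6g, whose product is the defining neutrophil antigen and was excluded in the sort, was at 0 in all 8 Ly6Chi libraries after IMQ. Of the 10 markers 8 stayed under 50 there. Platelet markers matter for F13a1, which platelets carry in large amounts, and 11 genes summed to between 40 and 398 over all libraries. They lay between 157 and 398 in wt and between 151 and 212 in N2ΔMy Ly6Clo libraries, without a call, and at 194 in the wt library whose F13a1 value stood out. That library was also the highest of the wt Ly6Clo group in Ly6c2 (92, against 12 to 38), in Ccr2 (991, against 241 to 641), in the sum of the 9 other classical monocyte genes (56142, against 34790 to 43551), in the neutrophil sum (306, against 17 to 210) and in the dendritic cell sum (531, against 86 to 147). Replicate 3 of the N2ΔMy Ly6Clo group was the highest there in Ly6c2 (382, against 46 to 58) and in the dendritic cell sum (1519, against 212 to 633). It was also the highest there in F13a1 (1962, against 1190 to 1754). In the sum of the 9 other classical monocyte genes (53456, against 54692 to 67567), in Vcan and in Fn1 it was the lowest, and in Ccr2 and the neutrophil sum not the highest. In Ly6Chi libraries the platelet markers lay between 40 and 128 after Sham and between 95 and 230 after IMQ, with median log2 fold changes over the 4 tested of 1.28 in wt and 1.81 in N2ΔMy mice. None was called there in wt mice, or 1 with the replicate block, and 1 in N2ΔMy mice, or 2 with the block. Lymphocyte markers summed to at most 18 in any library. Dendritic cell markers lay between 86 and 531 in wt and between 212 and 1519 in N2ΔMy Ly6Clo libraries, with none called between genotypes, or 2 with the replicate block. Erythroid markers reached 1547 and differed widely within groups, from 0 to 1547 in N2ΔMy Ly6Clo libraries, with no call between genotypes. Myeloid progenitor markers lay between 47 and 115 after Sham and between 219 and 301 after IMQ in Ly6Chi libraries. The part of these markers in the treatment result, and in the F13a1 values of the replicate 3 Ly6Clo libraries of both genotypes, was not tested.

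**Figure D4:**
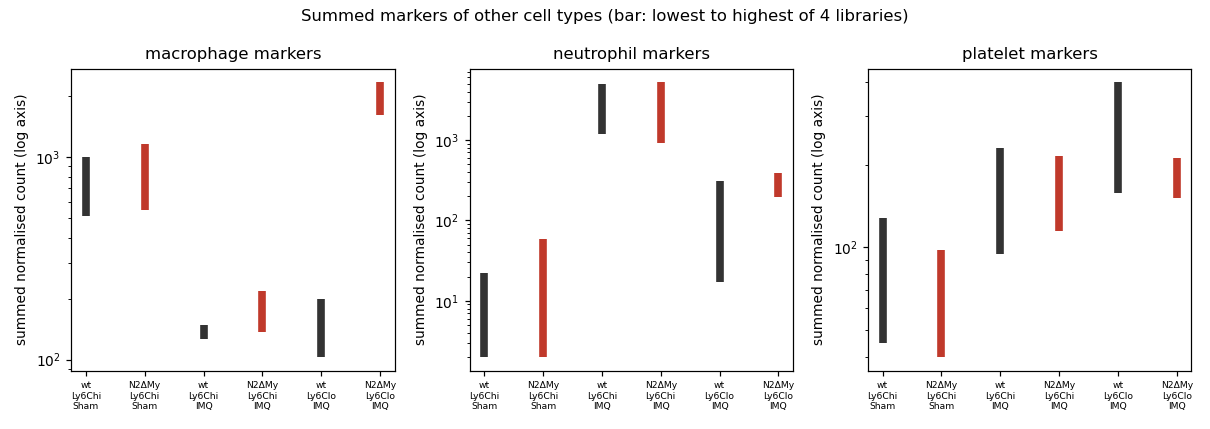
Summed normalised counts of macrophage, neutrophil and platelet marker genes (vertical log axis) as bars from the lowest to the highest of the 4 libraries in each of the 6 groups, wt in black and N2ΔMy in red. The macrophage sum reaches 1611 to 2336 in N2ΔMy Ly6Clo libraries, against 103 to 198 in wt Ly6Clo libraries, and the neutrophil sum rises from at most 59 after Sham to at least 923 after IMQ in Ly6Chi cells.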

How the data were processed

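RNA of sorted monocytes was sequenced with a stranded total RNA kit in 24 libraries, 6 groups of 4, grouped by the genotype, subset, treatment and replicate number in the labels. The authors trimmed reads with Trim Galore 0.4.4, aligned them with STAR 2.5.3a to GRCm38.p6, counted them on GENCODE genes and used DESeq2 for normalisation. Each deposited value is a score, namely a normalised count rounded to a whole number, so count models were not applied. Recomputed median-of-ratios factors lay between 1.0093 and 1.0112. The table lists 53715 genes, 25137 of them at 0 in every library. The same table holds the authors' mean and their own comparison (fold change, standard error, Wald statistic and p-values), which were not used. Division by a size factor leaves gaps or repeats among whole numbers, and depth was inferred from these, with an error of 0% in 8 simulated libraries. The simulated factors lay on the searched grid and followed the assumed rounding, so this does not measure the error in the real libraries. Binomial intervals need raw counts, so precision is given as SD, SE or the 95% interval of the limma fit over libraries.

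The 11230 genes that reached 50 in 1 or more libraries were tested with limma 3.58.1 in R 4.3.3 (lmFit, eBayes with a trend) on log2(value + 1), on the 8 libraries compared or the 16 of an interaction, with Benjamini-Hochberg adjustment over all genes tested. A pseudocount of 1 understates folds of low genes. Single genes were also tested by two-sided exact permutation over the 70 splits of 8 libraries. On simulated data, 200 of 200 genes changed by 2 on the log2 scale were recovered between wt Ly6Clo and Ly6Chi libraries. Of the 11230 genes, 2 others were called. In the simulated interaction of genotype and subset, 200 of 200 were recovered and 7 others called. Only changes of 2 were simulated, so recovery of smaller differences, such as the 0.72 of Hp after IMQ in wt mice, was not measured. Positions are those of the deposited table, and promoter sequences are from RefSeq on GRCm38.p6. Further software was Python 3.11.15, pandas 2.3.3, scipy 1.17.1 and matplotlib 3.10.9.

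Libraries with the same replicate number deviated together from their group means, with correlations of 0.16 to 0.619 across genes over the pairs of groups (-0.116 to 0.263 within a library series), so a fit with the number as a block was run beside each test. The 6 genes and the gene lists were chosen with earlier results of these data known, and their direction is not independent evidence. Named were the 6 genes, up to 4 called genes per list with the smallest p in wt Ly6Clo against Ly6Chi cells and between genotypes in Ly6Clo cells, the 3 nearest profiles per gene, of which 1 or 2 are printed, and genes marked in the text as chosen later. A gene that this rule names is not reported here. Alternatives were the block, the series as a covariate or alone, a pseudocount of 0.1, values under 1.1 set to 1.1, other filters, rescaling to the same sum or 75th percentile, no trend, all 24 libraries in the fit and leaving out each library.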

Additional observations from a re-analysis of the deposited data

Results flagged for a closer look

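In F13a1, 1 library stood apart in 2 of the 36 combinations of gene and group that were examined, of which chance marks about 1 in 20. In wt Ly6Clo cells after IMQ, replicate 3 was at 450 beside 71 to 120 in the other libraries, a gap of 0.871 of the range. In N2ΔMy Ly6Chi cells after Sham, replicate 1 was at 23977 beside 29727 to 30638, a gap of 0.863 of the range.

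The effect of genotype differed between Ly6Clo and Ly6Chi cells after IMQ in 4 of the 6 genes by the limma interaction test. On the log2 scale the difference was 3.36 for Vcan, 3.29 for F13a1, 2.97 for Fn1 and -0.76 for Mgst1, where a positive value is a larger N2ΔMy over wt difference in Ly6Clo cells. Their adjusted p-values were 2.6e-04, 0.00546, 8.6e-05 and 0.0138. The direction was the same within both library series in these 4 genes, with 3.78 and 2.95 for Vcan, 4.15 and 2.44 for F13a1, 3.38 and 2.57 for Fn1 and -0.49 and -1.03 for Mgst1. The Mgst1 interaction was called in neither series alone (adjusted p = 0.217 and 0.0874), and those of Vcan (adjusted p = 0.0561) and F13a1 (adjusted p = 0.325) were not called in the second series. Without a filter on low values the F13a1 interaction was not called (adjusted p = 0.0531).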

How the results depend on the processing

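Over 54 pairs of a gene and a comparison, 1149 of 1176 alternatives kept the direction and the side of the threshold, and none of the 25 called pairs changed direction in any of them. Within the second library series, 1 of the 6 genes was called in the interaction of genotype and subset, against 4 with all libraries. F13a1 between genotypes in Ly6Clo cells was 3.56 with an adjusted p of 0.0655 without a filter on low values, and Hp after IMQ in wt mice was 0.72 with an adjusted p of 0.0708. Differences near 0 changed sign. Within the first series, the genotype difference in Ly6Clo cells was 0.13 for F10, and the interaction of genotype and subset was 0.02 for Hp and 0.09 for F10. Within the second series, the genotype difference was -0.09 for Hp in Ly6Clo cells and -0.05 for Vcan and -0.07 for Fn1 in Ly6Chi cells after Sham, and the IMQ difference of Fn1 in wt cells was -0.10. Leaving out each library in turn gave -0.06 to 0.11 for Fn1 with IMQ in wt cells, -0.17 to 0.05 for F10 and -0.01 to 0.30 for Vcan between genotypes after Sham, and -0.10 to 0.05 for F10 and -0.03 to 0.28 for Hp between genotypes in Ly6Clo cells. The cause was not tested.

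When the replicate number entered as a block, the number of the 6 genes called was the same in all 9 comparisons, 6 and 6 for the subsets in wt and N2ΔMy mice, 3 between genotypes in Ly6Clo cells and 4 in the interaction with subset. Over all genes, calls between genotypes in Ly6Clo cells ran from 180 (second series) to 939 (block) around 537, those of the interaction with subset from 18 to 271 around 116, and those between genotypes in Ly6Chi cells from 0 to 54 around 3 after IMQ and from 1 to 7 around 2 after Sham. IMQ in wt Ly6Chi cells gave 592 in the second series, against 1066. Without wt Ly6Chi IMQ replicate 2 the interaction with subset gave 75 genes. Without a filter, 1 gene was called in the interaction with treatment. All 72 rescaled group levels were within 1 SD. The effect of depth on these values was not tested.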
